A study of Mus musculus with 4 samples.

Results

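Motifs of tissue-specific basic helix-loop-helix (bHLH) factors, chosen by factor name from muscle, neural and mesoderm families, were compared between regulatory T cells (Tregs) of vehicle-treated and venetoclax-treated mice. Of 33 factors listed, 32 had at least 1 motif entry, and Msgn1 was not analysed here. They held 53 of the 1346 motif entries, or 32 of 802 factor names. The 53 entries had 38 distinct sets of 4 scores, because related factors can be assigned the same motif. The motifs were named by factor and, where a factor had several, by the LINE number in the entry name.

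A class II bHLH factor binds DNA as a dimer with a widely expressed E protein (Tcf3, Tcf4 or Tcf12), at a short sequence called the E-box, CANNTG, whose central bases differ between families. Id proteins lack the DNA-binding region and hold E proteins away from DNA. In T cells the balance of E proteins and Id proteins guides thymocyte development and Treg differentiation. Most of the factors here are known from other tissues, but Msc, Twist1 and Ascl2 also have described roles in T cells. A motif score belongs to a sequence pattern and not to the factor it is named for, and expression was not measured here.

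The 4 samples were ATAC-seq libraries, which read out transposase-accessible DNA, from CD4+ FOXP3+ Tregs of spleen. There were 2 samples from mice given vehicle and 2 from mice given the BCL-2 inhibitor venetoclax at 50 mg/kg, both for 14 days. All mice were labelled WT on the strain B6.Cg-Foxp3tm2Tch/J, in which GFP is expressed together with Foxp3, so the reporter was shared by both groups. Ages were not given, and the labels call the samples biological replicates without naming animals, so p-values cover only the spread between these samples. The table holds neither reads per sample nor gene-level values, so depth is unknown and the Treg identity of the samples was not checked against marker genes.

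The measured value was the authors' chromVAR deviation score, which is above 0 where peaks with the motif were more accessible in a sample than the method's background, and below 0 where they were less accessible. Across all 1346 entries, vehicle replicate 1 and vehicle replicate 2 had a Pearson correlation of 0.60, and the venetoclax replicates one of 0.09. Venetoclax replicate 1 was more like vehicle replicate 1 (0.57) than like venetoclax replicate 2. Across all entries venetoclax replicate 2 stood apart, with a correlation of -0.74 to vehicle replicate 2, which was -0.86 over the 53 bHLH entries. Over these 53 the venetoclax replicates correlated at 0.33 and the vehicle replicates at 0.42. Vehicle replicate 2 and venetoclax replicate 1 correlated there at -0.05. The median gap between replicates over the 53 was 0.65 score units for vehicle and 0.54 for venetoclax. These are descriptions across motifs, which are not independent, and scores of samples scored together are relative to each other. For motifs that rest on venetoclax replicate 2, differences without it are given where they are described.

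The comparison asked whether accessibility at these E-box motifs differed between venetoclax and vehicle. The largest positive differences were those of single motifs of Myf5 and Myf6 and of the motif shared by Neurog2 and Neurog3, and the largest negative ones those of 1 motif of the NeuroD factors, Msc and Ascl2. None of these differences passed the test, and other motifs of Myf5 and of the NeuroD factors had the opposite sign. Of the 53 bHLH entries, 0 had a limma adjusted p under 0.05, and 0% of all 1346 entries did. At an unadjusted p under 0.05 there were 15 bHLH entries, or 28.3%, beside 18.3% of all entries. Of these, 10 were higher with venetoclax (6.39% of all entries were) and 5 were lower (11.9% of all entries). Counted by distinct set, this left 9 of 38 sets, or 23.7%, against 17% of all sets. With 2 samples against 2 an exact permutation test of a single motif cannot go below p = 0.333, so limma, which shares the spread over motifs, was used for every motif.

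The count of 0 was not kept under every analysis. With a variance trended on the mean score and robust to outliers, limma called 3 bHLH entries (Myf5 LINE111, Myf6 LINE118 and Msc), where 5.5% of all entries were called. Without venetoclax replicate 1 limma called more entries, among the bHLH entries and among all entries. Entries that share a motif were counted there more than once. That fit has 1 venetoclax sample and assumes that it varies as the vehicle samples do. With any other sample left out limma called none, and those fits also leave 1 sample in a group.

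Over the 53 entries the median difference, venetoclax minus vehicle, was 0.21 score units, beside -0.29 over all entries. It was between 0.017 and 0.10 with a sample left out, lowest without vehicle replicate 1. Positive differences were found for 31 of the 53, beside 38.7% of all entries, and negative ones for 22, beside 61.3%. With every sample centred on its median, the all-entry median was -0.03 and that of the bHLH entries 0.48. The groups did not overlap for 23 of the 53 entries, or 43.4%, beside 48.3% of all entries. Of these 23, 15 were higher with venetoclax (17.2% of all entries were) and 8 lower (31.1%). The spread among the bHLH entries, from -2.41 to 2.37, was wider than their median difference, and the 95% interval of an entry reached 1.48 score units to either side at the median.

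**Figure D1:**
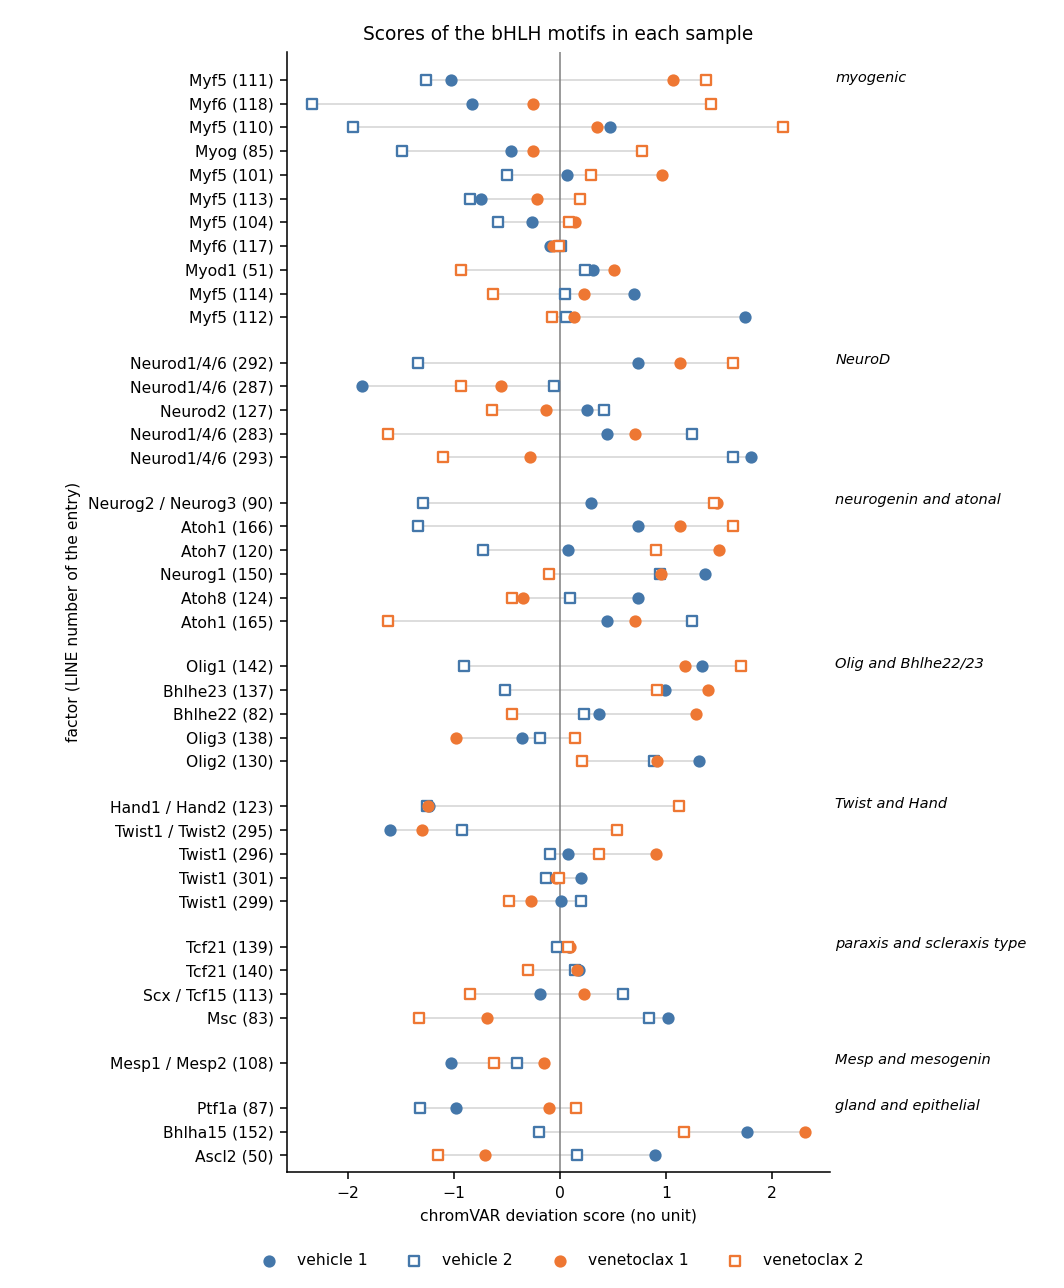
chromVAR deviation score (horizontal axis, no unit) of each bHLH motif in the 2 vehicle samples (blue) and 2 venetoclax samples (orange), replicate 1 as filled circles and replicate 2 as open squares, with rows grouped by subgroup. Vehicle replicate 2 and venetoclax replicate 2 are at opposite ends of 21 of the 53 entries, as in Myf5 LINE110, where they scored -1.95 and 2.10.

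The plot of scores by sample shows venetoclax replicate 2 and vehicle replicate 2 as the lowest and highest samples of 21 of the 53 entries, beside 38.3% of all entries. In Myf5 LINE111, Msc and the NeuroD motif LINE293 both samples of each group lie together.

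The myogenic factors Myf5, Myod1, Myog and Myf6 direct skeletal muscle commitment and differentiation. They had 11 entries, all with different scores, of which 8 had a positive difference, beside 38.7% of all entries. The groups did not overlap for 6, or 54.5%, beside 48.3% of all entries. All 6 were higher with venetoclax, as were 17.2% of all entries. The subgroup's median score was -0.10 and -0.58 in the vehicle samples and 0.14 and 0.19 in the venetoclax samples. The median difference was 0.79, and 0.51 without venetoclax replicate 1.

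Myf5, an early determination factor, had the largest positive difference of the bHLH motifs in its entry LINE111. This motif scored -1.03 and -1.26 in the vehicle samples and 1.07 and 1.37 with venetoclax. Both vehicle samples were below 0 and both venetoclax samples above it. The means were -1.15 ± 0.17 and 1.22 ± 0.22 (SD, n = 2 each), a difference of 2.37 (SE 0.68, 95% interval from 0.94 to 3.79, limma adjusted p = 0.15). Leaving out 1 sample at a time gave differences from 2.22 to 2.52, the lowest without venetoclax replicate 2. In the authors' deposited table this entry held rank 7 of 1346 in the order of differences.

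Myf6, which acts in muscle differentiation and maintenance, scored -0.83 and -2.34 in the vehicle samples and -0.25 and 1.43 with venetoclax in its entry LINE118. The groups did not overlap, but only venetoclax replicate 2 was above 0. The difference was 2.17 (SE 0.77, limma adjusted p = 0.174), and 1.33 without venetoclax replicate 2. The second Myf6 motif, LINE117, scored -0.10 and 0.0055 in the vehicle samples and -0.06 and -0.01 with venetoclax. All 4 samples were next to 0 there, and the difference was 0.0071 (SE 0.68).

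Myog, the factor of terminal muscle differentiation, scored -0.47 and -1.49 in the vehicle samples and -0.25 and 0.77 with venetoclax. The groups did not overlap, although venetoclax replicate 1 was nearer to vehicle replicate 1 than to its own replicate. The difference was 1.24 (SE 0.72, limma adjusted p = 0.394) and 0.73 without venetoclax replicate 2. Myod1, the factor able to convert fibroblasts to muscle, went the other way. It scored 0.31 and 0.24 in the vehicle samples and 0.51 and -0.93 with venetoclax, so that the groups overlapped and only venetoclax replicate 2 was negative. Its difference of -0.49 (SE 0.72) became 0.24 without that sample.

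The 7 motifs of Myf5 covered a range from -0.87 to 2.37, so no single direction belonged to the factor's name. LINE110 scored 0.47 and -1.95 in the vehicle samples and 0.35 and 2.10 with venetoclax. Its groups overlapped, and its difference of 1.96 (SE 0.82) was 0.75 without vehicle replicate 2 and 1.09 without venetoclax replicate 2. LINE101 scored 0.07 and -0.50 with vehicle against 0.97 and 0.29, a difference of 0.85 (SE 0.70). LINE113 scored -0.75 and -0.85 with vehicle against -0.21 and 0.19, a difference of 0.79 (SE 0.68). LINE104 scored -0.26 and -0.58 with vehicle against 0.14 and 0.09, a difference of 0.54 (SE 0.68). In each of LINE101, LINE113 and LINE104 both venetoclax samples were above both vehicle samples and the 95% interval included 0. The remaining pair of Myf5 motifs had negative differences and overlapping groups. LINE114 scored 0.70 and 0.05 with vehicle against 0.23 and -0.63, a difference of -0.58 (SE 0.70) that was -0.15 without venetoclax replicate 2. LINE112 scored 1.74 and 0.05 with vehicle against 0.14 and -0.07, a difference of -0.87 (SE 0.73) that was -0.022 without vehicle replicate 1.

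NeuroD factors drive the differentiation of neurons and, for Neurod1, of endocrine cells of the pancreas and gut. Neurod1, Neurod4 and Neurod6 shared all of their 4 motifs, and with Neurod2 they made 13 entries but only 5 distinct sets of scores. Their differences ran in both directions. The groups did not overlap for 3 entries higher with venetoclax (17.2% of all entries were) and 4 lower (31.1%). The 3 higher entries all had the same scores, and the 4 lower ones were another shared motif and Neurod2. The subgroup's median difference was -0.72, or -0.13 without venetoclax replicate 2.

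The NeuroD motif LINE293 of Neurod1 (LINE423 of Neurod4 and LINE331 of Neurod6) had the largest negative difference of the bHLH motifs. It scored 1.80 and 1.63 in the vehicle samples and -0.28 and -1.10 with venetoclax. Both vehicle samples were well above both venetoclax samples, and the vehicle means of 1.72 ± 0.12 and venetoclax means of -0.69 ± 0.58 (SD, n = 2 each) were further apart than the replicates. The difference was -2.41 (SE 0.69, 95% interval from -3.85 to -0.97, limma adjusted p = 0.15), and -2.00 without venetoclax replicate 2. In the authors' deposited table the 3 entries held ranks 1322 to 1324.

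A second motif of the same 3 factors, LINE292 of Neurod1, had the opposite sign and was shared with Atoh1, a factor of inner ear hair cells, cerebellar granule neurons and gut secretory cells. It scored 0.74 and -1.34 in the vehicle samples and 1.14 and 1.63 with venetoclax. Vehicle replicate 2 was the one low sample, and vehicle replicate 1 lay close to the venetoclax samples. The difference was 1.68 (SE 0.76, limma adjusted p = 0.261) and 0.65 without vehicle replicate 2. The third motif, LINE283 of Neurod1, which Atoh1 also shared, scored 0.44 and 1.24 in the vehicle samples and 0.71 and -1.63 with venetoclax. Only venetoclax replicate 2 was below 0, and the difference of -1.30 (SE 0.78) was -0.13 without it. The fourth, LINE287, differed by 0.21 (SE 0.74) with overlapping groups. Its difference was -0.69 without vehicle replicate 1 and 1.12 without vehicle replicate 2. Neurod2, a factor of cortical neurons, scored 0.26 and 0.42 with vehicle against -0.13 and -0.64, a difference of -0.72 (SE 0.69), or -0.47 without venetoclax replicate 2, with groups that did not overlap.

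Neurogenins start neurogenesis, and Neurog3 also specifies pancreatic endocrine cells. The atonal factors include Atoh1, Atoh7 of retinal ganglion cells and Atoh8. The 7 entries of this subgroup had a median difference of 1.53, which was 0.40 over the distinct sets, 0.65 without vehicle replicate 2 and -0.73 over the D entries alone, those whose names end in D. Of the 7 entries, 4 had positive differences, beside 38.7% of all entries. The groups did not overlap for these 4 (17.2% of all entries were higher) and for 1 with a negative difference (31.1% were lower). Among the 4, Neurog2 and Neurog3 had the same scores, and Atoh1 LINE166 had those of Neurod1 LINE292.

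The motif shared by Neurog2 and Neurog3 scored 0.29 and -1.29 in the vehicle samples and 1.48 and 1.45 with venetoclax. The venetoclax samples were nearly equal and both above the vehicle samples. The difference was 1.96 (SE 0.72, limma adjusted p = 0.174), 1.98 without venetoclax replicate 2 and 1.17 without vehicle replicate 2. Atoh7 scored 0.07 and -0.72 in the vehicle samples and 1.50 and 0.91 with venetoclax, a difference of 1.53 (SE 0.70, limma adjusted p = 0.261). Both motifs were at least as high in venetoclax replicate 1 as in venetoclax replicate 2. Neurog1 scored 1.37 and 0.95 with vehicle against 0.95 and -0.11, and Atoh8 scored 0.74 and 0.10 against -0.35 and -0.45. Their differences were -0.73 (SE 0.70), or -0.20 without venetoclax replicate 2, and -0.82 (SE 0.69), so the sign differed within the neurogenins and within the atonal factors.

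**Figure D2:**
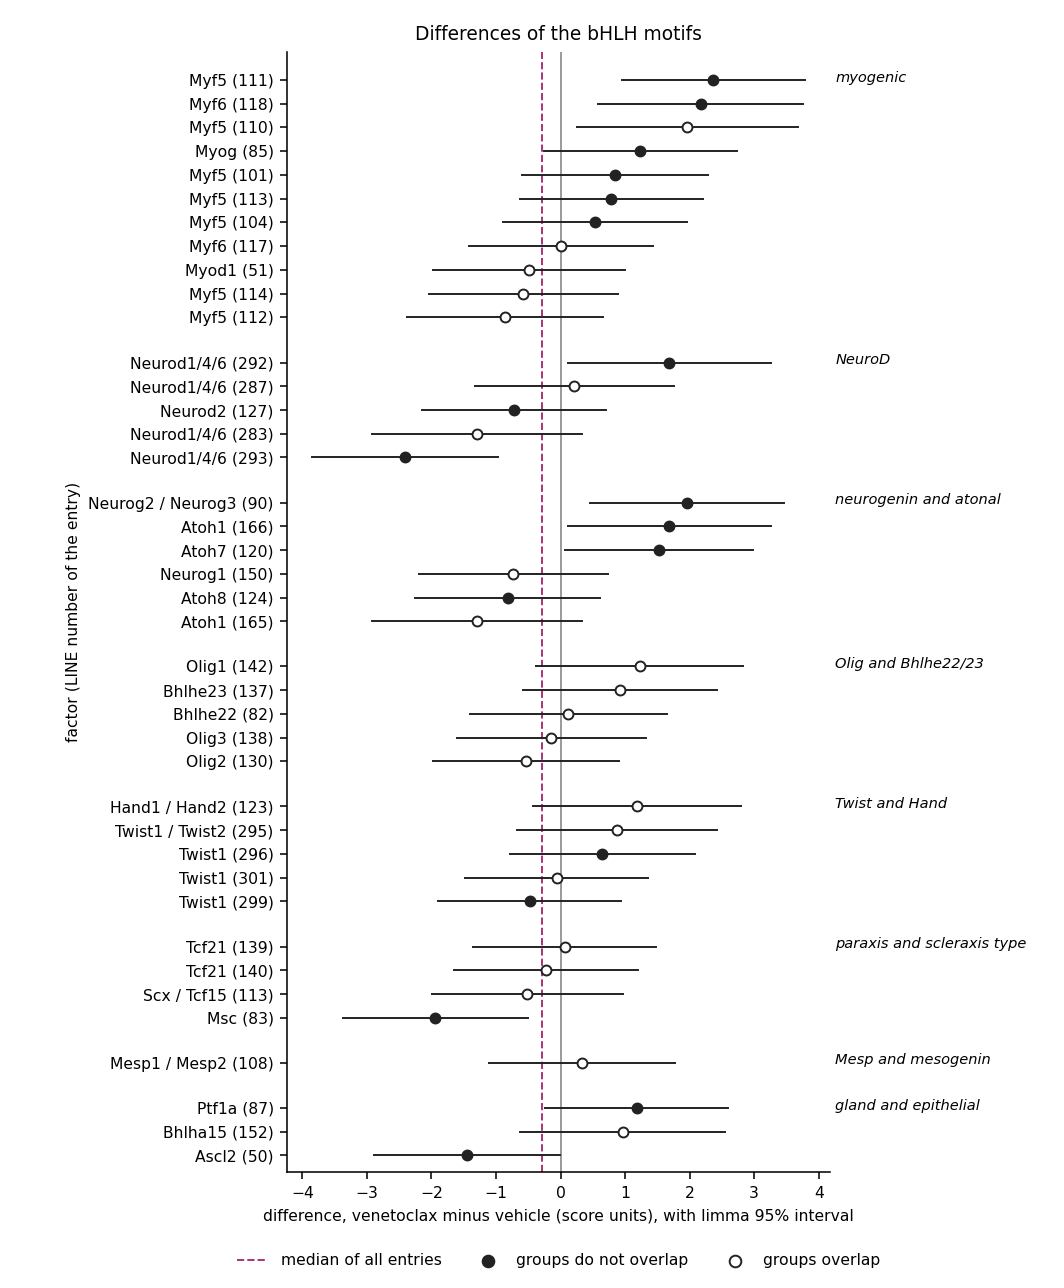
Difference between venetoclax and vehicle (horizontal axis, score units) for each bHLH motif, with the limma 95% interval, filled points where the groups do not overlap and open points where they do, and a dashed line at the median of all entries (-0.29). Intervals that leave out 0 are found at both ends, from -2.41 for the NeuroD motif LINE293 to 2.37 for Myf5 LINE111, and no adjusted p was under 0.05.

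The plot of differences shows motifs on both sides of 0 in every subgroup except Mesp and mesogenin, which held a single motif. Of 8 factors with more than 1 entry, 7 had entries of both signs. These are not separate cases, as Neurod1, Neurod4 and Neurod6 had the same motifs and both Atoh1 entries were among them. The share over all factors with several entries was not counted. Of the 53 differences, 3 changed sign when samples were centred on their medians.

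Olig1 and Olig2 act in oligodendrocytes, Olig2 also in motor neurons, and Olig3, Bhlhe22 and Bhlhe23 in neurons of spinal cord and retina. The groups overlapped for all 5 of these motifs. Olig1 had the largest difference, with 1.34 and -0.90 for vehicle and 1.18 and 1.71 for venetoclax. Only vehicle replicate 2 was low, and the difference of 1.23 (SE 0.77) was 0.10 without it. Olig2 scored 1.31 and 0.89 in the vehicle samples and 0.92 and 0.21 with venetoclax, a difference of -0.54 (SE 0.69) that was -0.18 without venetoclax replicate 2. It was the one bHLH motif above 0 in all 4 samples. Bhlhe23, Bhlhe22 and Olig3 had differences of 0.92, 0.12 and -0.14, which were 1.16, 0.99 and -0.71 without venetoclax replicate 2. Bhlhe23 was 0.17 without vehicle replicate 2. Without venetoclax replicate 1, Bhlhe22 was -0.75 and Olig3 was 0.42, so both changed sign.

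Twist1 and Twist2 act in mesenchyme and the skull, and Hand1 and Hand2 in the heart and limb. Twist1 is also known as a regulator of Th1 cells. Hand1 and Hand2 shared a motif that scored -1.23 and -1.26 in the vehicle samples and -1.24 and 1.13 with venetoclax. Venetoclax replicate 2 was the only sample that differed, and the difference of 1.19 (SE 0.77) was 0.0012 without it. The motif shared by Twist2 and Twist1 (LINE295), which Tal2 also had, showed the same arrangement, with -1.60 and -0.92 for vehicle and -1.30 and 0.54 for venetoclax. Its difference was 0.88 (SE 0.75) and -0.044 without venetoclax replicate 2. The 3 other Twist1 motifs differed by 0.65, -0.06 and -0.48. In the lowest of them, LINE299, the scores were 0.0088 and 0.20 in the vehicle samples and -0.27 and -0.48 with venetoclax, so the groups did not overlap, with a difference below its standard error of 0.68.

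Msc (musculin) is a repressor of myogenic bHLH activity and has been described in induced Tregs. It scored 1.02 and 0.84 in the vehicle samples and -0.69 and -1.33 with venetoclax. Both vehicle samples were above 0 and both venetoclax samples below it. The means were 0.93 ± 0.13 and -1.01 ± 0.45 (SD, n = 2 each), a difference of -1.94 (SE 0.69, 95% interval from -3.37 to -0.51, limma adjusted p = 0.174). With a sample left out it ranged from -2.26 to -1.62, nearest to 0 without venetoclax replicate 2. In the authors' deposited table Msc held rank 1266.

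The factors grouped with Msc by family had differences nearer to 0, with 95% intervals that overlapped that of Msc. Scx, of tendon, and Tcf15, of somites, shared a motif that scored -0.19 and 0.59 in the vehicle samples and 0.23 and -0.85 with venetoclax, a difference of -0.52 (SE 0.71) that was 0.026 without venetoclax replicate 2. Tcf21, of visceral mesoderm, had a pair of motifs with differences of 0.06 and -0.23, the latter -0.0027 without venetoclax replicate 2. The first of these, LINE139, scored 0.08 and -0.03 in the vehicle samples and 0.10 and 0.08 with venetoclax. It and Myf6 LINE117 were the 2 bHLH entries within 0.2 of 0 in all 4 samples. Mesp1 and Mesp2, of early cardiac mesoderm and somites, shared a motif that scored -1.02 and -0.40 in the vehicle samples and -0.15 and -0.62 with venetoclax. It was below 0 in every sample, and the difference of 0.33 (SE 0.69) was 0.017 without vehicle replicate 1 and 0.096 without venetoclax replicate 1.

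Ptf1a, of the exocrine pancreas and cerebellum, scored -0.98 and -1.32 in the vehicle samples and -0.10 and 0.15 with venetoclax. The groups did not overlap and both replicates of a group lay together. The difference was 1.18 (SE 0.68, limma adjusted p = 0.395), with a range from 1.01 to 1.35 when a sample was left out. Bhlha15, of secretory cells including plasma cells, scored 1.76 and -0.19 in the vehicle samples and 2.31 and 1.17 with venetoclax. It held the highest single score of the bHLH motifs, in venetoclax replicate 1, and its difference of 0.96 (SE 0.77) was -0.018 without vehicle replicate 2.

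Ascl2, of intestinal stem cells, trophoblast and follicular helper T cells, scored 0.89 and 0.16 in the vehicle samples and -0.71 and -1.15 with venetoclax. The vehicle samples were above 0 and the venetoclax samples below it. The difference was -1.45 (SE 0.69, limma adjusted p = 0.272), and it ranged from -1.82 to -1.09 with a sample left out.

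**Figure D3:**
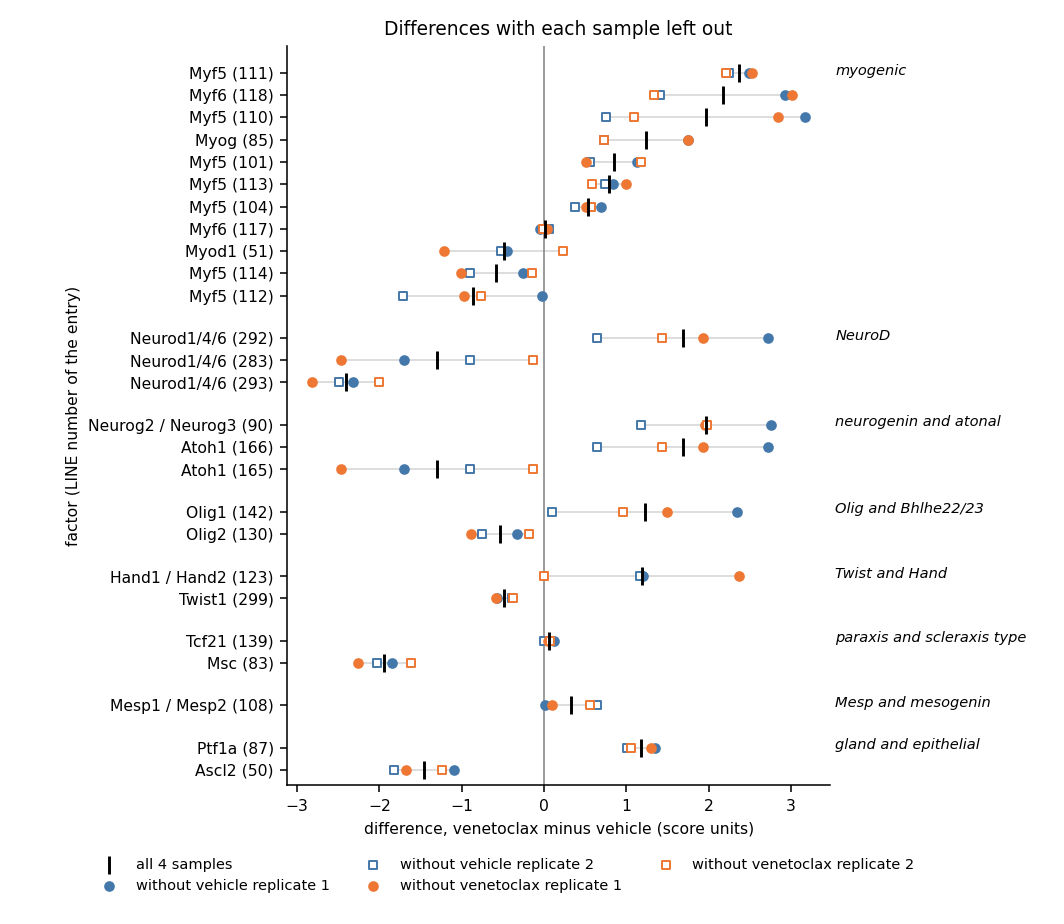
Difference between venetoclax and vehicle (horizontal axis, score units) with all 4 samples (black bars) and with each sample left out (symbols), for all myogenic motifs and the highest and lowest motif of each other subgroup. Myf5 LINE111, Msc, Ptf1a and the NeuroD motif LINE293 keep to a narrower range than Hand1 and Hand2, which run from 0.0012 to 2.37. So do motifs with smaller differences, such as Twist1 LINE299, from -0.58 to -0.38.

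The plot with samples left out separates motifs whose difference was much the same in every fit from motifs that rested on a single sample. Of the 24 motifs plotted there, 2 changed sign when a sample was left out, Myod1 and the near-zero Myf6 LINE117, and over all 38 distinct bHLH motifs 9 did, among them Bhlha15, the motif of Scx and Tcf15 and that of Twist1 LINE295 and Twist2.

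Entries were also described by shared scores and by the ending of their names. Related factors listed by name can be assigned the same motif, so shared scores are partly given by the choice. Of the 38 sets of scores, 10 belonged to more than 1 entry of the table, and these covered 25 of the 53 entries. Entry names end in D or I, letters that mark directly measured and inferred motifs in the CIS-BP database, although the motif collection is not given in the sources used here. The 15 D entries had a median difference of 0.0071 and the 38 I entries one of 0.33, beside -0.23 and -0.32 for all D and I entries. Among the D entries, Myf6 LINE118 and Atoh1 LINE166 were the highest, and Msc and Ascl2 the lowest.

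Other E-box lists gave values for context, again with 0 entries past the limma adjusted threshold. The 10 entries of the dimer partners and antagonists, the E proteins, Id factors and the E-box repressor Zeb1, held 8 distinct sets. Of these entries, 8 were positive, beside 38.7% of all entries, with a median difference of 1.17. Among the E proteins, the entries of Tcf4 and Tcf12 were positive and both entries of Tcf3 were negative. The Tcf3 differences were -0.17, with overlapping groups, and -0.73, with groups that did not overlap. At a limma unadjusted p under 0.05 there were 5, or 50%, beside 18.3% of all entries. Id1 and Id2, with the same scores, were among these 5. Zeb1 led this list, with -1.07 and -1.58 for vehicle, 0.12 and 1.80 for venetoclax and a difference of 2.28 (SE 0.73). Of 16 entries of other class II bHLH factors, such as the blood factors Tal1 and Lyl1, 6 were positive, with a median of -0.40. The 14 entries of Myc, Max, Usf and Tfe factors, which bind another E-box form, had a median of 1.04 with 11 positive. The 9 Hes and Hey entries had a median of -0.67 with 3 positive, and the 5 Snail-type zinc finger entries one of -0.35 with 2 positive. The bHLH entries described here, at 31 of 53 positive, lay between these lists, and no difference between lists was tested.

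**Figure D4:**
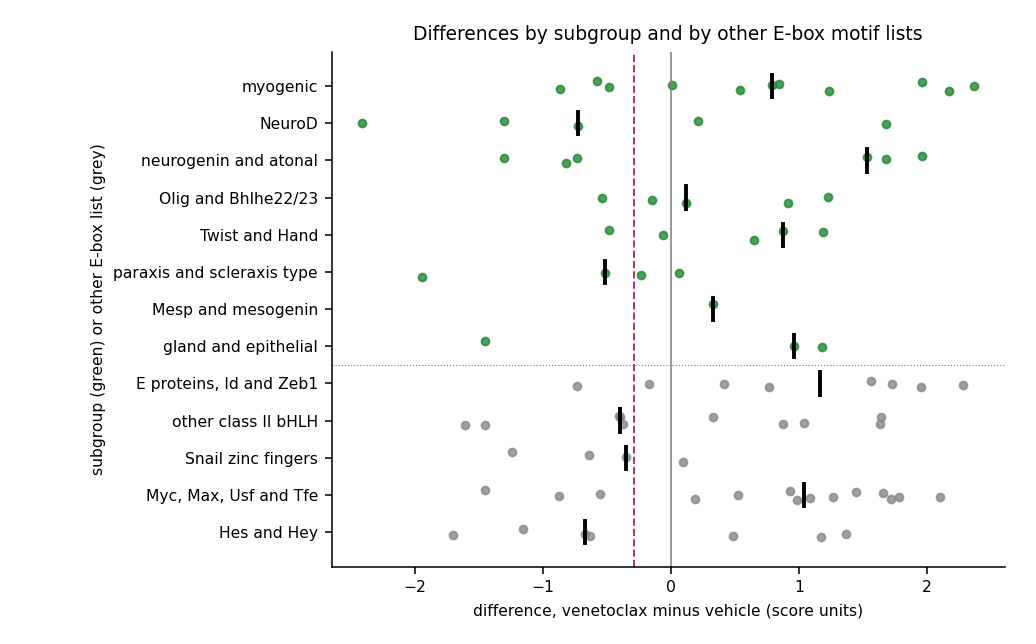
Differences between venetoclax and vehicle (horizontal axis, score units) by subgroup (green) and for other E-box lists (grey), 1 point per distinct set of scores, with black bars at the median over all entries of the list and a dashed line at the median of all 1346 entries. Subgroup medians run from -0.72 (NeuroD) to 1.53 (neurogenin and atonal), and single motifs of most lists lie on both sides of 0.

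The plot by subgroup shows medians of 0.88 (Twist and Hand), 0.96 (gland and epithelial) and -0.52 (paraxis and scleraxis type). Each of these subgroups had motifs on both sides of 0. Without venetoclax replicate 2 the Twist and Hand median was -0.044 and that of the paraxis and scleraxis type 0.026, and without vehicle replicate 2 the gland and epithelial median was -0.018.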

How the data were processed

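Chromatin accessibility was measured by ATAC-seq. Bowtie2, Picard, MACS2 and the build mm10 are named, without versions, in the submitters' processing notes. The values the authors deposited are, going by the name of the file, chromVAR deviation scores, 1 for each motif entry in each sample. The motif collection, the peaks scored and those drawn as background are not stated in these sources, and neither is whether the score is a z-score. The table has 12 sample columns, of which 8 match no described sample and were not used. The authors' differences equalled those recomputed within 1e-09.

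Scores were compared as deposited, without filter, with limma 3.58.1 in R 4.3.3 (two-sided, Benjamini-Hochberg over 1346 entries, threshold 0.05, 21 degrees of freedom of which 2 come from the samples). The limma step was also run on simulated scores drawn independently for each entry. The real entries are not independent, so that run does not show how the fit behaves on them. Entries with equal scores to 9 decimals counted as 1 set. The members, the 8 subgroups and the other lists were chosen with earlier results of these data known. Values in every sample are given for each subgroup's highest and lowest motif and all myogenic motifs. Atoh7, Atoh8, Neurog1, Neurod2, Bhlha15, Scx and Tcf15, and the motif shared by Twist1 and Twist2 were added after their values were seen. Alternatives were other scalings, variance models, a replicate block, samples left out, and subsets of entries.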

Additional observations from a re-analysis of the deposited data

How the results depend on the processing

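With all 4 samples, 0 of 1346 entries and 0 bHLH entries passed the limma adjusted threshold. A trended and robust variance gave 74 and 3, and leaving out samples 0 to 337 and 0 to 19, the highest without venetoclax replicate 1. The replicate number as a block gave 0 and 0, with 100 and 7 entries at an unadjusted p under 0.05. The labels do not say that a number pairs samples, and the deviations of same-numbered samples correlated at -0.27. The crossed pairing, chosen after seeing the data, gave 0 and 0, with 258 and 15 at an unadjusted p.

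The median difference of the bHLH entries, 0.21, was 0.48 after centring, 0.45 after centring and division by the SD, 0.0071 in D entries and 0.017 to 0.10 with a sample left out. The myogenic median was 1.05 and 1.11 under these scalings. The neurogenin and atonal median was 0.40 over distinct sets and -0.73 in D entries. The Olig and Bhlhe22 and Bhlhe23 median was -0.013 in D entries and 0.92 in I entries, and the gland and epithelial median -0.25 in D entries. These subsets hold fewer entries.

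With a sample left out, medians ranged from 0.51 to 0.84 (myogenic), -0.98 to -0.13 (NeuroD), 0.65 to 1.93 (neurogenin and atonal), 0.045 to 0.96 (Olig and Bhlhe22 and Bhlhe23), -0.044 to 1.80 (Twist and Hand), -1.06 to 0.026 (paraxis and scleraxis type), 0.017 to 0.64 (Mesp) and -0.018 to 1.35 (gland and epithelial). Entries whose groups do not overlap numbered 23, or 43.4%, beside 48.3% of all entries. In D entries they were 5 of 15, or 33.3%, beside 46.0% of all D entries. With a sample left out they numbered 31 to 43, where a lone sample separates more easily. The share over all entries was not counted for those fits. Among single motifs, Myf6 LINE117 ranged from -0.044 to 0.058 and Myod1 from -1.21 to 0.24. The other 22 of the 24 motifs chosen by rule kept their sign in each alternative run on them, and over all 38 distinct bHLH motifs 9 changed sign with a sample left out. The cause of these changes was not tested, and depth is unknown.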
